A study of Mus musculus with 32 samples.

Results

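Fatty acid uptake and oxidation genes were followed in mouse ventricle across a healthy, a hypertrophied and a failing state. The list held 45 genes, of which 41 had a probe set annotated with that gene alone on either of the 2 array types. Acsl1, Cpt1b, Hadha and Ucp2 had none and are not described. These 41 stand among 13660 genes with such a probe set in the whole series. For each gene the probe set with the highest mean log2 signal was taken, and 33 of the 41 were bright enough to be tested. Of these 33, 29 were represented on the first array type and 4 (Acat1, Acot2, Rxra and Bdh1) on the second.

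The samples were total RNA of mouse cardiac ventricle. The wild type group had 5 samples. The hypertrophy group had 8 samples and the failure group 3, both from mice with a cardiac specific AT1 transgene. AT1 is not spelled out in the labels; in heart research it commonly means the type 1 receptor of angiotensin II. Each sample was measured on both array types. The labels give no promoter, line, strain, age or sex, and no statement that samples came from separate mice, so p-values reflect only how these samples vary, and some of that variation may be technical. Every transgenic sample was in hypertrophy or failure, so the transgene and the disease state cannot be told apart when these groups are set against wild type.

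Median signals per array ran from 91.8 to 121 on the first type and from 69.3 to 80.6 on the second. All 10 cardiomyocyte markers had tested probe sets, and their summed signal ran from 56186 to 63134 in wild type, 50428 to 64146 in hypertrophy and 57278 to 58717 in failure. In hypertrophy replicates 6 and 7 the 5' Gapdh probe set of the first type gave 0.468 and 0.0487 of the 3' signal, against 0.889 ± 0.0543 (SD, n = 5) in wild type. Fewer cells of a type and less RNA per cell cannot be told apart in such tissue samples.

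The adult heart takes most of its energy from long-chain fatty acids. These are freed from lipoproteins, taken up, bound, joined to coenzyme A and carried as carnitine esters into mitochondria, where beta-oxidation removes acetyl-CoA in repeated rounds of dehydrogenation, hydration, a second dehydrogenation and thiolysis. PPAR receptors, bound to DNA with retinoid X receptors at repeats of the hexamer AGGTCA, and the coactivator encoded by Ppargc1a control many of these genes.

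Promoters of tested members, whatever their result, were searched for motifs of these regulators. RefSeq promoter windows of 300 bases (250 before to 50 after the transcription start, GRCm38.p6) were matched to 26 of the 33 tested genes. AGGTCA, searched on both strands, was present in 5 of the 26 (19.2%), namely Acadm, Cd36, Cpt1a, Echs1 and Rxra, against 18.1% of 27025 genes. The direct repeat of AGGTCA with 1 base between the copies, which PPAR and RXR bind, was in none of the 26 and in 0.0481% of all genes, and the longer TCAAGGTCA, bound by estrogen-related receptors, was in none and in 0.466%. Exact copies this rare are seldom met in 26 genes, so their absence does not show that these members lack such sites. The core sequence of nuclear respiratory factor 1, a palindrome rich in GC pairs, was in 2 of the 26 (7.69%), Etfdh and Ppara, against 1.07% of genes. These are matches of letters, not measured binding. The Echs1 window (chr7:140116372-140116671, minus strand) and the Acadm window (chr3:153944594-153944893, minus strand) are shown with the hexamer in capitals, which in Acadm lies on the opposite strand and so reads TGACCT. Its first base lies 83 bases before the start in Echs1 and 249 before it in Acadm. The Ppara window (chr15:85735526-85735825, plus strand) is shown for its nuclear respiratory factor 1 core, in capitals, whose first base lies 31 bases before the start and which reads the same on both strands.
Echs1: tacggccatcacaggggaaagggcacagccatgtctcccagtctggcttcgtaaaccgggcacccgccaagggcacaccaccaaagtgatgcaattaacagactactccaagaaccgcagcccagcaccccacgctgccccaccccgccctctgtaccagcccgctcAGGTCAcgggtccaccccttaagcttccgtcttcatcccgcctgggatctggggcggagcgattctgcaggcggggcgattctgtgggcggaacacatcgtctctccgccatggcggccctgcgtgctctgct
Acadm: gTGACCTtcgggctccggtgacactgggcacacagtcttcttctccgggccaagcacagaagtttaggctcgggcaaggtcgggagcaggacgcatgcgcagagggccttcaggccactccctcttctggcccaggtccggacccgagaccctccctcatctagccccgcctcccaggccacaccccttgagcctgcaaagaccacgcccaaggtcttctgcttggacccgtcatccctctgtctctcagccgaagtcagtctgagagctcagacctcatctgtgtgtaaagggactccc
Ppara: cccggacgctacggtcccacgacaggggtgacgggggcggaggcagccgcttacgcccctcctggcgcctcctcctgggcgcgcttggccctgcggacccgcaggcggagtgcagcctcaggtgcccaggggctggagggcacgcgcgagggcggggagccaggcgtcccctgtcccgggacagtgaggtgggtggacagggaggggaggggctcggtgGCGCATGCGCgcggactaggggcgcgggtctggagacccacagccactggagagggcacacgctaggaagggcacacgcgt

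Across the 33 tested genes, 1 passed the test. Acat1 was lower in hypertrophy than in wild type. No member passed when failure was set against wild type (smallest limma adjusted p of a member 0.15) or against hypertrophy (0.133). The test was limma on log2 signals of all tested probe sets of an array type, with Benjamini-Hochberg adjustment and a threshold of 0.05; a gene past it is said to be called. Of all 13984 tested probe sets on both types, 0.0858% were called for hypertrophy against wild type, 0.25% for failure against wild type and 0.0143% for failure against hypertrophy. Few transcripts of any kind passed.

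Signs of the differences were counted next. In failure against wild type, 28 of the 33 members had a difference below 0 (84.8%), with a median log2 difference of -0.16, against 40.3% of all probe sets and a median of 0.05. In failure against hypertrophy 26 of 33 were below 0 (78.8%), with a median of -0.13, against 41.5% and 0.04 over all. In hypertrophy against wild type 22 of 33 were below 0, with a median of -0.03, against 48% and 0.01. With arrays scaled to equal medians the members below 0 numbered 29 for failure against wild type and 30 for failure against hypertrophy, and all probe sets below 0 made up 58.3% and 55.6%; with quantile scaling the members numbered 28 and 29, and all probe sets made up 51.0% and 49.5%. Leaving out 1 array moved the median most in failure against wild type, to -0.25 without wild type replicate 2 and -0.10 without wild type replicate 5. The median of failure against hypertrophy became -0.20 without hypertrophy replicate 1 and -0.08 without hypertrophy replicate 7. Both contrasts of failure use the same 3 arrays, so their member values are not separate evidence. Members also moved together on single arrays, so the 33 signs are not independent of each other. Wild type replicate 2 alone had 29 of 33 members below the wild type mean, as had hypertrophy replicate 1. Failure replicates 1 to 3 had 24, 26 and 23. In failure against wild type Acads, Crat and Rxra were above 0 on another tested probe set, and Lpl was below 0 on another.

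At an unadjusted limma p under 0.05, 6 of the 33 members were lower in failure than in wild type and none higher: Hadh, Acaa2, Eci1, Echs1, Hsd17b10 and Ppara. Over all probe sets 3.45% were lower and 7.99% higher at that level. In failure against hypertrophy 4 were lower (Hadh, Acaa2, Eci1 and Acot2) and 2 higher (Acat1 and Lpl), against 3.02% and 6.34%. Hypertrophy was lower than wild type at that level for 2 members (Acat1 and Ppara) and higher for 1 (Acot2), against 2.68% and 4.44%. The arrays of failure and wild type did not overlap for 5 members, of which Crat, Hadh, Acaa2 and Ppara were lower and Lpl higher, and this 15.2% is near the 13.5% over all probe sets. Over all probe sets 4.35% were separate and lower and 9.17% separate and higher. Failure and hypertrophy did not overlap for 3 members, Hadh, Acaa2 and Eci1, all lower, where 0.686% of all probe sets were.

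**Figure D1:**
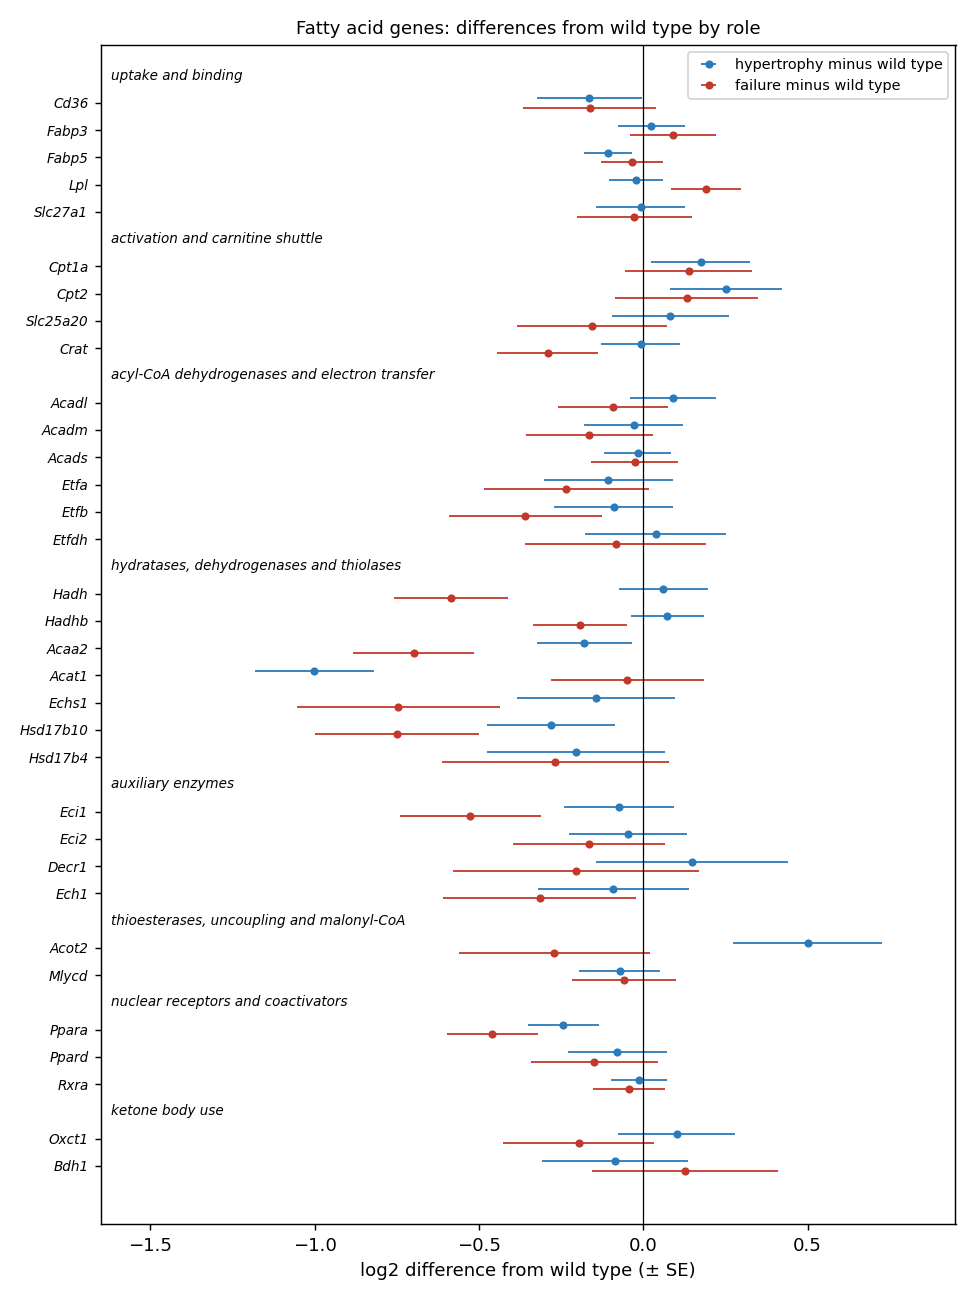
Log2 difference from wild type (x axis) of the 33 tested genes, grouped by role, for hypertrophy (blue) and failure (red). Points are limma estimates and bars standard errors. Acat1 at -1.0 in hypertrophy is the 1 called difference, and in failure the group from Hadh to Hsd17b4 has all 7 of its points below 0.

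The first steps, release, uptake and binding of fatty acids, were measured by 5 tested genes, none of which passed in any comparison. Their median log2 difference was -0.02 in hypertrophy and -0.03 in failure against wild type. Cd36, the main fatty acid transporter of the heart cell surface, gave 257, 334, 242, 253 and 278 in the 5 wild type arrays. It gave 143 to 340.1 with a median of 240 in hypertrophy, and 227, 229.6 and 271 in failure. The 3 groups overlapped, and a dimmer Cd36 probe set overlapped as well, at 138 to 181, 136 to 296 and 144 to 160 in the same order. Fabp3, the fatty acid binding protein of heart muscle, ran from 3479 to 4857 in wild type, 3766 to 5073 in hypertrophy and 4301 to 4894 in failure. Fabp5, a binding protein found in many tissues, varied least of all members around its group means, with a residual SD of 0.08 on the log2 scale, and kept within 241 to 293 over all arrays. Slc27a1, a transport protein that also activates fatty acids, ran from 179 to 301 over the 3 groups. Fabp4, the binding protein of fat cells and capillary endothelium, was too dim to test, at 25.4 to 49.8 across all arrays.

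Lpl, the lipase that frees fatty acids from lipoproteins, depended on the probe set. Its brighter probe set gave 4290.4, 4082, 4211, 4173 and 4620.4 in wild type, 3730.3 to 4988 with a median of 4173 in hypertrophy, and 4924, 4851 and 4855 in failure. All failure arrays lay above all wild type arrays, by a log2 difference of 0.19 ± 0.11 (SE, limma adjusted p = 0.56), and 1 hypertrophy array lay above them. Against hypertrophy the difference was 0.21 ± 0.10 (adjusted p = 0.482). The dimmer probe set, on the same arrays, gave 2938, 3191, 2952, 3045 and 2565 in wild type, 1495 to 2773 with a median of 2179 in hypertrophy, and 1825, 1804 and 2155 in failure. Here failure lay below all of wild type, by -0.61 ± 0.15 (adjusted p = 0.13), and hypertrophy differed from wild type by -0.44 ± 0.12 (adjusted p = 0.95). The dimmer set was called in failure against wild type when only those groups were fitted (adjusted p = 0.0258), with median scaling (0.0282), without hypertrophy replicate 1 (0.0275) and with array weights. The probe sets thus differ in sign for failure against wild type, and neither was called in the fit over all arrays.

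Of the genes for activation and the carnitine shuttle, 4 were tested and none passed. Their median log2 difference was 0.13 in hypertrophy and -0.01 in failure against wild type. Set against hypertrophy, failure was below 0 for all 4, with a median of -0.18. Cpt1a, the outer membrane carnitine palmitoyltransferase of liver that the heart also holds, ran from 125 to 184 in wild type, 118 to 274 in hypertrophy and 159 to 177 in failure. Cpt2, its inner membrane partner, ran from 236 to 427, 311 to 526.5 and 264 to 460.2. Slc25a20, which exchanges acylcarnitine for carnitine across the inner membrane, ran from 221 to 357, 212 to 477 and 237 to 283. Acsl4, a fatty acid activating enzyme, was not bright enough to test, at 2.66 to 43.3.

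Crat, which makes acetylcarnitine from acetyl-CoA, had 3 tested probe sets. The brightest gave 396, 380.3, 396, 431 and 402 in wild type, 329 to 553 with a median of 377 in hypertrophy, and 286, 324 and 379 in failure. Failure lay just below wild type, with its highest array at 379 and the lowest wild type array at 380.3. The log2 difference was -0.29 ± 0.15 (limma adjusted p = 0.54). The dimmest, on the second type, was higher in hypertrophy, at 159 to 271 with a median of 215 against 144 to 171, a log2 difference of 0.40 ± 0.12 (adjusted p = 0.253). On the brightest set the same difference was -0.01 ± 0.12. On the dimmest set failure, at 177.5, 178 and 182, lay above all of wild type, by 0.16 ± 0.15 (adjusted p = 0.714). The middle set, on the first type, ran from 246 to 251 in failure and 257 to 360 in wild type. Its difference was -0.28 ± 0.21 (adjusted p = 0.686). Failure was thus separate from wild type on all 3 sets, lower on the brightest and middle sets and higher on the dimmest.

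The acyl-CoA dehydrogenases and electron transfer proteins carry out the first oxidation of each round and pass its electrons on to the respiratory chain. All 6 tested genes were below 0 in failure against wild type, with a median of -0.13 and a range of -0.36 (Etfb) to -0.03 (Acads), and none passed. A dimmer tested Acads probe set was above 0 there, at 0.08 ± 0.15, so the sign of Acads depended on the probe set. A dimmer Etfb set was below 0, at -0.36 ± 0.19. Acadm, the medium-chain dehydrogenase, gave 1744, 1883, 2519, 2180.1 and 2537 in wild type, 1628 to 2874 with a median of 1973 in hypertrophy, and 1697, 1840.2 and 2258 in failure. All 3 groups overlapped. Acadl, the long-chain enzyme, ran from 578 to 828.8, 610 to 1008 and 531 to 729, and Acads, the short-chain enzyme, from 193 to 279, 199.9 to 269.6 and 209.9 to 239. Etfa and Etfb, the subunits of the electron carrier, ran from 815 to 1507 and 1244 to 2470 in wild type. In failure they ran from 755 to 1395 and 1383 to 1654, and in hypertrophy from 739 to 1509 and 1326 to 2612. Etfdh, which hands the electrons to ubiquinone, ran from 146 to 334, 145 to 383 and 200.4 to 253. Acadvl, the very-long-chain dehydrogenase, was not bright enough to test (14.2 to 44.2).

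The later steps of the round held the members with the largest differences from wild type. All 7 tested hydratases, dehydrogenases and thiolases were below 0 in failure against wild type, with a median of -0.58, and 4 of them were below an unadjusted p of 0.05, though none was called. Hadh, the dehydrogenase for medium and short 3-hydroxyacyl-CoA, gave 1219.5, 1247, 1399, 1394 and 1475 in wild type, 1133 to 2005 with a median of 1339.8 in hypertrophy, and 784, 887 and 1033 in failure. No failure array reached any array of the other groups. The log2 difference was -0.58 ± 0.17 against wild type (limma adjusted p = 0.218) and -0.65 ± 0.16 against hypertrophy (adjusted p = 0.173). Acaa2, the mitochondrial 3-ketoacyl-CoA thiolase that closes the round, gave 2118.9, 2119, 2988, 2503 and 2722 in wild type, 1749 to 3200.5 with a median of 1964 in hypertrophy, and 1483, 1494 and 1584 in failure. It too was separate from both, by -0.70 ± 0.18 against wild type (adjusted p = 0.15) and -0.52 ± 0.17 against hypertrophy (adjusted p = 0.316).

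Echs1 and Hsd17b10 had the lowest estimates in failure against wild type and a wide spread. Echs1 is the short-chain enoyl-CoA hydratase whose promoter is shown above, and Hsd17b10 is a dehydrogenase of short and branched 3-hydroxyacyl-CoA. Echs1 gave 424, 473, 541, 465 and 643 in wild type, 288 to 939 with a median of 389 in hypertrophy, and 231, 251 and 469 in failure. Failure replicates 1 and 2 lay below all of wild type, and replicate 3 lay within it. The difference from wild type was -0.75 ± 0.31 (limma adjusted p = 0.397), and -1.07 without failure replicate 3. Hsd17b10 gave 311.5, 283, 414, 327 and 383 in wild type, 188 to 406 with a median of 274 in hypertrophy, and 182, 149 and 307 in failure. Replicate 3 again stood within wild type, and the difference was -0.75 ± 0.25 (adjusted p = 0.267). Hadhb, a subunit of the trifunctional protein for long chains, ran from 2082 to 2807, 2007 to 3245 and 1963 to 2262. Hsd17b4, the peroxisomal hydratase and dehydrogenase, ran from 102 to 175, 56.0 to 279 and 114 to 139.99. Acaa1a, the peroxisomal thiolase, was not tested (42.0 to 90.5).

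**Figure D2:**
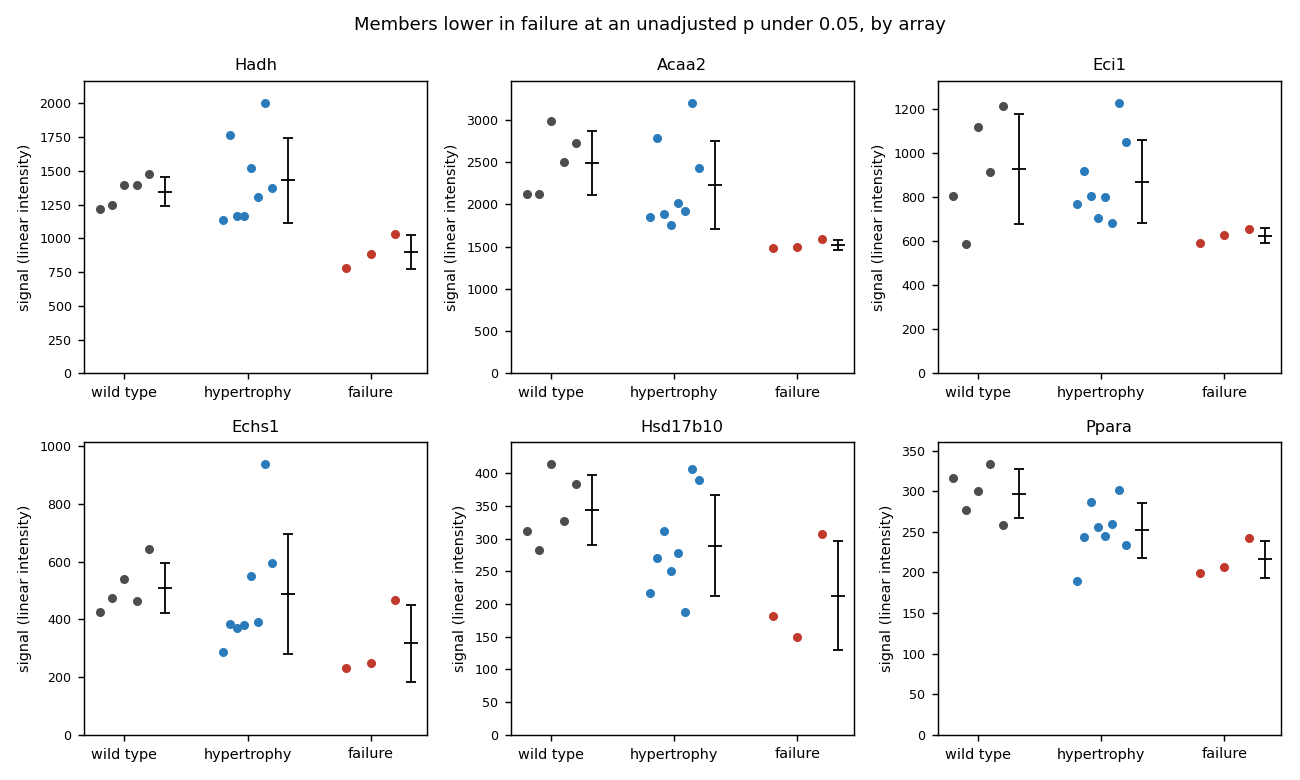
Linear signal (y axis, arbitrary intensity units) of the 6 members lower in failure than in wild type at an unadjusted p under 0.05; each point is 1 array and the bars are mean ± SD (n = 5, 8 and 3). Failure lies below every wild type array for Hadh, Acaa2 and Ppara, and overlaps wild type for Eci1, Echs1 and Hsd17b10.

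Acat1, the mitochondrial acetoacetyl-CoA thiolase of ketone body and isoleucine breakdown, was the called member. Its brighter probe set gave 136, 141, 196, 162 and 182 in wild type and 76.1, 85.3, 86.6, 73.0, 88.5, 103.6, 96.8 and 50.4 in hypertrophy. Every hypertrophy array lay below every wild type array, as for 0.136% of all probe sets. Acat1 fell by 1.0 ± 0.18 on the log2 scale (SE, limma adjusted p = 0.0284), on the second array type, where 0.171% of probe sets were called. In failure it gave 185, 102 and 204. Replicate 1 lay within the wild type range, replicate 3 above it and replicate 2 within the hypertrophy range. Failure differed from hypertrophy by 0.95 ± 0.21 (adjusted p = 0.133). The dimmer Acat1 probe set, on the same arrays, gave 54.2 to 88.6 in wild type, 28.3 to 91.8 in hypertrophy and 59.0 to 77.8 in failure, a hypertrophy difference of -0.12 ± 0.23 (adjusted p = 0.894). The manufacturer's suffixes on these sets, _r_at and _f_at, mark sets designed with some selection rules dropped or against a family of similar sequences. The call was lost on leaving out any wild type replicate or hypertrophy replicate 3, 4 or 5, with the replicate number as a block, without the brightness filter and with adjustment over both array types. The difference stayed between -1.06 and -0.90 with each array left out, and the adjusted p ran from 0.00737 to 0.119 over all alternatives.

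Auxiliary enzymes prepare unsaturated fatty acids for the round. All 4 were below 0 in failure against wild type, with a median of -0.26, and none passed. Eci1, the isomerase of enoyl-CoA, gave 807, 590.2, 1118, 914 and 1215 in wild type, 684 to 1230.2 with a median of 804 in hypertrophy, and 592, 628 and 658 in failure. Failure lay below all hypertrophy arrays and below 4 of 5 wild type arrays. The log2 difference was -0.53 ± 0.21 against wild type (limma adjusted p = 0.387) and -0.45 ± 0.20 against hypertrophy (adjusted p = 0.454). Eci2, a related isomerase, ran from 269.6 to 403, 248 to 590.4 and 279 to 325. Ech1, which shifts conjugated double bonds, ran from 1389 to 2933, 1097 to 2806 and 1495 to 1868. Decr1, the 2,4-dienoyl-CoA reductase, had the widest spread of all members, with a residual SD of 0.57, at 88.7 to 250.4, 94.1 to 311 and 99.6 to 162.

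Acot2, a mitochondrial thioesterase that releases free fatty acid from acyl-CoA, was the member with the highest estimate in hypertrophy. It gave 274, 271, 262, 204 and 327 in wild type, 206 to 636 with a median of 364 in hypertrophy, and 216, 255 and 192 in failure. The log2 difference of hypertrophy from wild type was 0.50 ± 0.23 (limma adjusted p = 0.492), and of failure from hypertrophy -0.77 ± 0.27 (adjusted p = 0.453). Hypertrophy overlapped both other groups. Mlycd, which breaks down the carnitine shuttle inhibitor malonyl-CoA, ran from 459 to 664, 425 to 674 and 471 to 608. Acot1, the cytosolic thioesterase, and Ucp3, a mitochondrial anion carrier, were not tested, at 50.7 to 98.7 and 51.0 to 101.

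Among the regulators, Ppara, the receptor that controls much of this programme in heart, was lower in both disease states on its brighter probe set, without being called. It gave 316, 277, 301, 333 and 258 in wild type, 189 to 302 with a median of 251 in hypertrophy, and 199, 206 and 242 in failure. All failure arrays lay below wild type, and 5 of 8 hypertrophy arrays did. The difference was -0.24 ± 0.11 in hypertrophy (limma adjusted p = 0.96) and -0.46 ± 0.14 in failure (adjusted p = 0.218). The dimmer Ppara probe set, on the second type, gave 81.2 to 112, 61.2 to 119 and 83.1 to 89.0, with all groups overlapping. Its difference from wild type was -0.02 ± 0.14 in hypertrophy (adjusted p = 0.971) and -0.09 ± 0.18 in failure (adjusted p = 0.876). Ppard, the receptor found in most tissues, ran from 716 to 1153, 672 to 1084 and 686 to 1007. Rxra, the partner of PPAR receptors, ran from 661 to 841, 656 to 851 and 665 to 804. Its difference of failure from wild type was -0.04 ± 0.11 on this probe set. On its dimmer tested sets it was above 0, at 0.15 ± 0.12, 0.03 ± 0.14 and 0.11 ± 0.16. Ppargc1a was too dim to test, at 70.6, 54.3, 52.6, 60.5 and 74.8 in wild type, 39.4 to 76.7 with a median of 64.6 in hypertrophy, and 57.4, 54.0 and 82.1 in failure. Pparg, the receptor of fat cells, was not tested either (3.59 to 42.2).

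**Figure D3:**
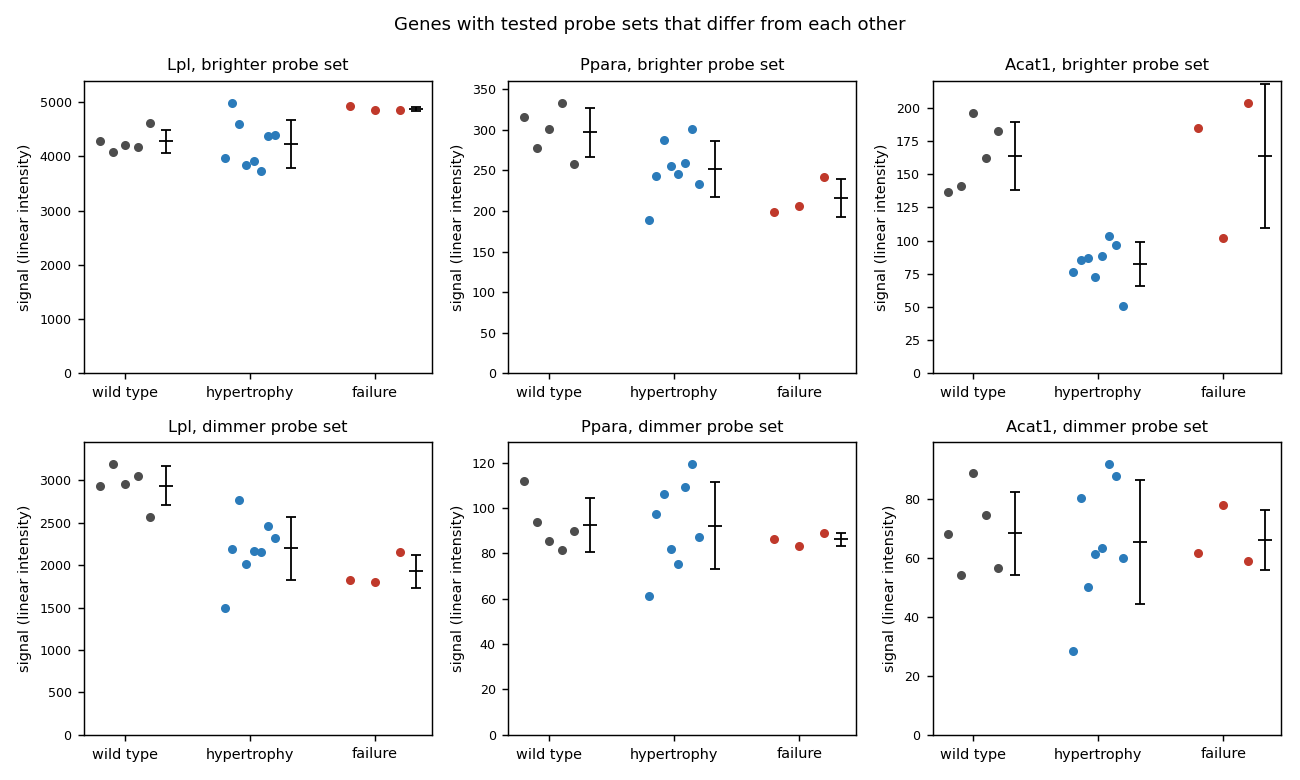
Linear signal (y axis, arbitrary intensity units) of the brighter (top) and dimmer (bottom) tested probe sets of Lpl, Ppara and Acat1; each point is 1 array and the bars are mean ± SD (n = 5, 8 and 3). Lpl failure arrays lie above wild type in the top panel and below it in the bottom panel, and the separation of hypertrophy for Acat1 and of failure for Ppara is seen in the top panels only.

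Oxct1 and Bdh1, the remaining enzymes of ketone body use, did not pass. Oxct1, which activates acetoacetate for use in mitochondria, ran from 624 to 1170.1 in wild type, 662 to 1371 in hypertrophy and 612 to 881 in failure. Bdh1, the 3-hydroxybutyrate dehydrogenase, ran from 122 to 163, 77.8 to 189.9 and 101 to 249.

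Many members deviated together on single arrays. The median deviation of the 33 members from their wild type means was -0.09, -0.23, 0.13, -0.02 and 0.20 in wild type replicates 1 to 5. It ran from -0.33 (replicate 1) to 0.31 (replicate 7) in hypertrophy and was -0.28, -0.15 and -0.08 in failure. All 3 failure arrays were below 0, but within the range of both other groups except that replicate 1 lay below every wild type array. The median over all tested probe sets kept within -0.12 and 0.09 on every array. Wild type replicate 5 was the highest of its group for 17 members and replicate 2 the lowest for 21. Hypertrophy replicate 7, the array with the lowest Gapdh ratio, was the highest of 8 for 17 members. The residual SD within groups had a median of 0.30 over the members and 0.23 over all probe sets.

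**Figure D4:**
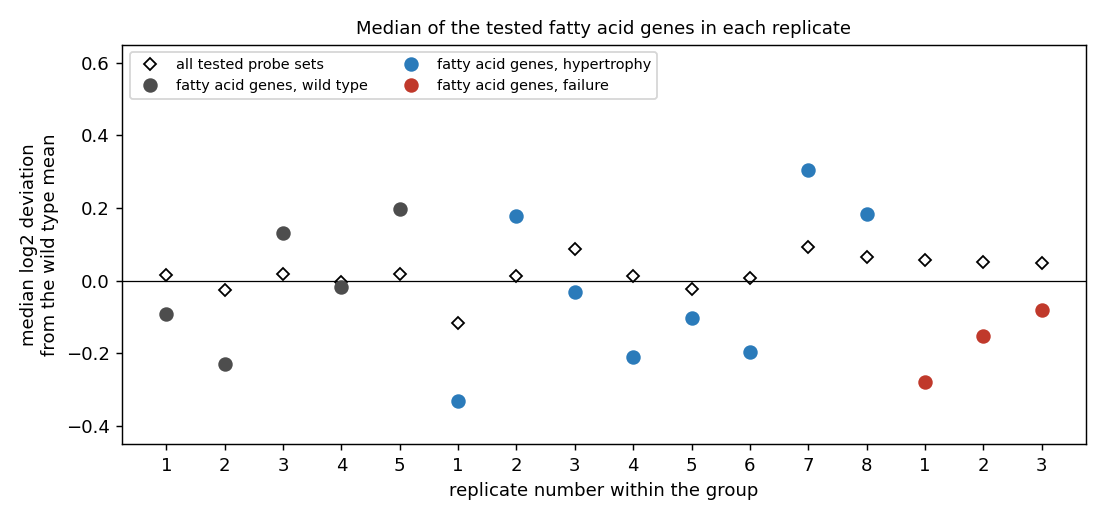
Median log2 deviation of the 33 tested members from their wild type means (y axis, filled points) by replicate (x axis) in wild type, hypertrophy and failure, with the median over all tested probe sets as open diamonds. Failure points lie at -0.28, -0.15 and -0.08, while wild type points run from -0.23 to 0.20 and hypertrophy points from -0.33 to 0.31.

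Other measures were compared across the 3 groups. The 5' to 3' ratio of Actb on the first type was 0.623 ± 0.0819 (SD, n = 5) in wild type, 0.701 ± 0.204 in hypertrophy (SD, n = 8) and 0.960 ± 0.173 in failure (SD, n = 3). On this type every failure array (0.765 to 1.10) lay above every wild type array (0.545 to 0.752). The part of this ratio and that of the disease state thus cannot be told apart there. With the ratio of each array type as a covariate, 24 of 33 members were below 0 in failure against wild type, against 37.4% of all probe sets. At an unadjusted p under 0.05, 3 members were lower and 1 higher, with 2.996% of all probe sets lower. The estimate for Hadh was then -0.42, for Acaa2 -0.59, for Eci1 -0.48, for Echs1 -0.36, for Hsd17b10 -0.71 and for Ppara -0.29. Marker sums took in every listed marker with a probe set, tested or not, while the brackets give how many of those listed were tested. The sums held 10 macrophage, 11 endothelial, 7 fat cell, 4 brown fat and 4 atrial markers. Summed fibroblast markers (7 of 7 tested) ran from 3353 to 4090 in wild type, 2214 to 5228 in hypertrophy and 3348 to 7006 in failure. Those of macrophages (8 of 10 tested) ran from 1651 to 2282, 1498 to 2314 and 1874 to 2534. Those of endothelium (9 of 11) ran from 1983 to 2503, 1337 to 2623 and 2071 to 2645, those of fat cells (5 of 9) from 1185 to 1322, 1200.04 to 1456 and 1293 to 1407, and those of atrial muscle (3 of 4) from 1265 to 3391, 986 to 4659 and 4093 to 5939.7. Brown fat markers (2 of 5) ran from 308 to 372, 308 to 383 and 389.9 to 444, with every failure array above both other groups. The 2 tested brown fat markers went opposite ways in failure against wild type, 1 at a log2 difference of 0.48 and 1 at -0.13. Red blood cell markers (2 of 5) ran from 4457 to 6471, 1935 to 7722 and 3892 to 10383, and smooth muscle markers (4 of 4) from 1007 to 1222, 993 to 1232 and 1096 to 1152. No list had a marker below the floor on every array. Single markers were also compared in failure against wild type at an unadjusted limma p under 0.05. There 3 of 9 endothelial, 3 of 8 macrophage and 2 of 7 fibroblast markers were higher, and none of these lists had a lower one. Over all probe sets 7.99% were higher and 3.45% lower. Differences below 0 were found for 4 of the 9 endothelial, 0 of the 8 macrophage and 1 of the 7 fibroblast markers. The part of these cell types in the differences above was not tested.

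Related lists give the setting. None of their genes was called in any comparison. Over all probe sets 40.3% were below 0 in failure against wild type. At an unadjusted p under 0.05, 3.45% were lower and 7.99% higher. In hypertrophy against wild type 48% were below 0 and 2.68% were lower at that level. Of 21 other uptake, activation and oxidation genes, 16 were below 0 in failure against wild type, with a median of -0.14, and 1 was lower at an unadjusted p under 0.05. That was Ivd, the isovaleryl-CoA dehydrogenase of leucine breakdown, named here after its values were seen, at 443 ± 15.6 (SD, n = 5) in wild type and 320.4 ± 30.1 (SD, n = 3) in failure. Of 45 respiratory chain and ATP synthase genes, 41 were below 0 in failure, with a median of -0.29, and 14 were lower at that level; in hypertrophy 43 were below 0, with a median of -0.17, and 2 were lower. Of 15 genes of fatty acid and malonyl-CoA synthesis, 12 were above 0 in failure, with a median of 0.13. Acacb, whose product malonyl-CoA inhibits the carnitine shuttle, was the 1 gene of these higher at that level, at 263 ± 30.6 (SD, n = 5) in wild type and 383 ± 36.9 (SD, n = 3) in failure. Of 20 regulators of oxidative metabolism, with a median of 0.03, Nrip1 was higher and Nrf1 and Rxrg were lower at that level. Nrf1, which encodes nuclear respiratory factor 1, had 609.9 ± 92.1 (SD, n = 5) in wild type and 387 ± 72.8 (SD, n = 3) in failure. Its log2 difference was -0.66 ± 0.18 (limma adjusted p = 0.109). These genes too were picked after their values were seen. The 14 lipid storage genes had a median of 0.04 in failure, with none past that level, and the 15 glycolysis and glucose transport genes -0.05, with 3 lower at that level (Hk2, Eno3 and Ldhb). In hypertrophy 14 of these 15 were below 0, with a median of -0.22, and 3 were lower at that level.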

How the data were processed

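Total RNA of mouse ventricle was measured on 2 Affymetrix array types, 16 arrays each (5 wild type, 8 hypertrophy, 3 failure). The authors deposited linear intensities, 1 per probe set; the genome build and their summarisation and scaling are not given in the sources used here, and that scaling can shift every difference slightly. Trimmed means varied by 4.82% and 3.31% (coefficient of variation) and medians by 6.60% and 4.65%. The rule asked for either to vary by under 5%, so the deposited intensity values were used unscaled, although the medians of the first type exceed that limit. Values under the type's 20th percentile (39.5 and 27.5) were raised to it before log2, which understates changes of dim genes. Probe sets reaching their array's median in 3 or more arrays were tested (6980 of 12488 and 7004 of 12477). Arrays give no counts; their number limits the precision.

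Each type was fitted with limma 3.58.1 (R 4.3.3, lmFit and eBayes, two-sided) over its 16 arrays, with Benjamini-Hochberg adjustment per type and comparison. The procedure was tested on simulated data. Gene names are those of the platform annotation, brought to GRCm38.p6 symbols by gene identifier. Members and lists were chosen with earlier results of these data known. Every member with a probe set is named; a difference with its SE is given where the adjusted p or the unadjusted p is under 0.05, or the groups do not overlap at 0.3 or more, and the signals of Ppara, Ppargc1a, Acadm and Cd36 are given whatever they did. Beyond this rule, differences of Crat, of further probe sets of a gene and values of a few genes of related lists are given, chosen after their values were seen. The alternatives tried were other floors, median and quantile scaling, no filter, a variance trend, array weights, only the groups compared, a replicate block, arrays left out, the Actb ratio as covariate, joint adjustment and another choice of probe set. Figures were drawn with matplotlib 3.10.9.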

Additional observations from a re-analysis of the deposited data

Results flagged for a closer look

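In 6 of 70 groups of member signals examined, 1 array stood far from the rest of its group (Dixon's test at 95%, in groups of 5 and 8; chance alone gives about 1 in 20 groups). Hypertrophy replicate 7 was the high array in 4 of them: Cpt1a at 274 against the next value of 188, Acadl at 1008 against 797, Eci2 at 590.4 against 387, and Echs1 at 939 against 596. The Gapdh ratio of that array was 0.0487 on the first type, the lowest of all arrays, and its part in these values was not tested. Fabp3 in wild type replicate 2 was low, at 3479 against 4465. Bdh1 in wild type replicate 5 was high, at 163 against 130.3.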

How the results depend on the processing

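None of the 18 named differences changed sign under 12 alternative settings or on leaving out each of 16 arrays. These 18 met the rule on p or on groups that do not overlap in the same arrays, so a kept sign is no separate support. The differences of failure from wild type for Crat and for the brighter Lpl set are not among them. The count of members called in hypertrophy against wild type (Acat1 alone) became 0 without the brightness filter, with adjustment over both array types and with the replicate number as a block, and ran from 0 to 1 with arrays left out. In failure against wild type the count of 0 became 7 with array weights (Crat, Hadh, Acaa2, Eci1, Echs1, Hsd17b10 and Ppara; 10.2% of all probe sets were then called), 2 with only those groups fitted (Hadh and Acaa2; 2.25% of all) and 1 with median scaling (Ppara; 0.522% of all). In failure against hypertrophy it became 4 with array weights (Hadh, Acaa2, Echs1 and Hsd17b10; 2.17% of all). The cause was not tested. With each array left out, the median member difference ran from -0.08 (without wild type replicate 2) to 0.02 (without wild type replicate 5) in hypertrophy against wild type, from -0.25 to -0.10 in failure against wild type and from -0.20 to -0.08 in failure against hypertrophy. Replicate numbers did not pair the arrays: 5 of 22 same-numbered pairs correlated above 0.1, over a range of -0.19 to 0.36, and 10 of 44 comparisons were best with the own number; the block changed no other count of called members. Precision is limited by the 3 failure arrays: the median standard error was 0.13 in hypertrophy and 0.17 in failure against wild type.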

Other observations

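A second, dimmer probe set of Mlycd, on the second array type and below the test's brightness limit, gave 59.5, 81.2, 66.4, 59.1 and 49.9 in wild type and was listed at the lowest deposited value, 1.0, in all 3 failure arrays. In hypertrophy it gave 22.8, 1.0, 1.0, 66.3, 26.3, 17.5, 386 and 9.82, the highest of these in replicate 7. The brighter Mlycd probe set overlapped between all groups. This set was picked after its values were seen and carries no test.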
